A study of Mus musculus with 12 samples.

Results

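Accessible chromatin was described at 10 genes of the corneocyte-like fate of medullary thymic epithelial cells: Grhl3, Krtdap, Lypd3, Sbsn, Dmkn, Spink5, Cnfn, Casp14, Trpv3 and Tgm3. They were taken by name as known genes of this fate, not by a value in these lists, and stand among 21631 protein-coding genes. The choice was made with earlier results of these data known. A peak was counted for a gene when it lay inside the gene's span on the mouse build mm10 or within 1 kb of either end. Peaks of the 12 libraries that overlapped by at least 1 bp were joined into regions, and 72 of 228401 regions fell in these windows.

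The data were ATAC-seq peak lists, 1 per library, from sorted mTEChi (mature medullary thymic epithelial cells, known for high MHC class II) of C57BL/6 mice aged 4 to 7 weeks. The 3 mutant genotypes were Aire -/-, which lacks the autoimmune regulator AIRE, and the heterozygotes Aire +/C313Y and Aire +/C442G, which carry 1 missense allele beside the wild-type allele. Each mutant genotype had 2 libraries, set against 2 Aire +/+ libraries of its own. The wild types were matched to a mutant by the form of their titles, which is an assumption. The labels do not say whether libraries came from separate or pooled animals, so the spread between the 2 libraries of a group may be technical.

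Aire-expressing mTEChi do not all die at that stage: some lose Aire and go on to post-Aire fates, among them cells that resemble the keratinocytes of the outer skin. In skin, such cells end as corneocytes, dead flat cells whose membrane is replaced by a protein envelope cross-linked by transglutaminases and coated with lipid. Hassall's corpuscles of the thymic medulla are built of cells of this look. Of the 10 genes, Grhl3 encodes a grainyhead-like transcription factor of epidermal barrier formation. Trpv3 encodes a warmth-gated cation channel of keratinocytes, and Lypd3 a surface protein of the Ly6/uPAR family. Sbsn (suprabasin), Dmkn (dermokine) and Krtdap (keratinocyte differentiation-associated protein) encode secreted proteins of stratified epithelia and lie side by side on chromosome 7. Tgm3 encodes a transglutaminase that cross-links the envelope, Casp14 the caspase of cornification, Spink5 an inhibitor of the kallikrein proteases that shed skin cells, and Cnfn (cornifelin) a protein of the envelope.

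The promoters are shown first because several of the differences between groups at these genes lay there. RefSeq promoter entries (assembly GRCm38.p6, the same coordinates as mm10) cover 250 bases before to 50 after a start of transcription. They gave 11 entries for 9 of the 10 genes, and Spink5 had none. A peak lay over 9 entries in at least 1 library, and the 6 entries with a peak in both libraries of at least 1 group are printed, 5′ to 3′ on the gene's strand. Capitals mark 3 motifs searched on both strands: AP-1 (TGANTCA), KLF (GGGNGTG) and the TATA box (TATAAA).
Grhl3, chr4:135573583-135573882, minus strand: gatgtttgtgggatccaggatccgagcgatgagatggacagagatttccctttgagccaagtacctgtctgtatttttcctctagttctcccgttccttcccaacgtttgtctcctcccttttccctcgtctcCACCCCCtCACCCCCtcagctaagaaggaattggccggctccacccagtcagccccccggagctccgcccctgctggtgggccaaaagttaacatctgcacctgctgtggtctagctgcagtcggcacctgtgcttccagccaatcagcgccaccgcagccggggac
Lypd3, chr7:24636320-24636619, plus strand: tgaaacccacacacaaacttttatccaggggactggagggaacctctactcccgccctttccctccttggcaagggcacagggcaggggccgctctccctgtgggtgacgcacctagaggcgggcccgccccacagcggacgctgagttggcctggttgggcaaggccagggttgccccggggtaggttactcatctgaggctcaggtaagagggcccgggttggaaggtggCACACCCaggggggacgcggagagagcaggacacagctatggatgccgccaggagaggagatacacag
Sbsn, chr7:30751221-30751520, plus strand: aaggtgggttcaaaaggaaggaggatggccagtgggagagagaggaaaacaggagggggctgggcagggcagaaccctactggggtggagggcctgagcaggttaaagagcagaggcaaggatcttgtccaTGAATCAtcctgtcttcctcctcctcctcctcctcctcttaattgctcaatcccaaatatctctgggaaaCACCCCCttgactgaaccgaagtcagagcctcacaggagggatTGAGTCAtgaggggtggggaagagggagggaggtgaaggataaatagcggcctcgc
Dmkn, chr7:30776155-30776454, plus strand: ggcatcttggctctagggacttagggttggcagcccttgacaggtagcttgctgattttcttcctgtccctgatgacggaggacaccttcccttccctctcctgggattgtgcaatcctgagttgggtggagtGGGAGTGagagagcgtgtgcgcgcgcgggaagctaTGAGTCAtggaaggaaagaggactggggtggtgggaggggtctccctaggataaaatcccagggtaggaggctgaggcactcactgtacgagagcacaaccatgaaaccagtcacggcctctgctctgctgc
Casp14, chr10:78718244-78718543, minus strand: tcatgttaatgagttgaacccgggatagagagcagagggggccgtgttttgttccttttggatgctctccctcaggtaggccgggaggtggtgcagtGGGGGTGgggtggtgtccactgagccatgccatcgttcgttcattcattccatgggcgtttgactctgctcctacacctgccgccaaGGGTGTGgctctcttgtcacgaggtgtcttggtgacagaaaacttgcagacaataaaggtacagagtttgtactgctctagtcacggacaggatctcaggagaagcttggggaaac
Trpv3, chr11:73267270-73267569, plus strand: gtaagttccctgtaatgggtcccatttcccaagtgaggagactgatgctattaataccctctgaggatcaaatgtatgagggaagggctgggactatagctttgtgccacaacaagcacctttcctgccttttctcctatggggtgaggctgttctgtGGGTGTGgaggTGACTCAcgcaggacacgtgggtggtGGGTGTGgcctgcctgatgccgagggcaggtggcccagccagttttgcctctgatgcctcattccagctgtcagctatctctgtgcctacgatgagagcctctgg

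The AP-1 letters were in 6 of the 11 entries, those of Krtdap, Sbsn, Trpv3 and all 3 of Dmkn, of which 2 start 2 bp apart and share their match. Over all 21045 RefSeq promoters of the same length, 7.04% held it. The match began 81 bases before the start in both Trpv3 and Krtdap and 82 bases before it in the inner Dmkn promoter, and Sbsn had matches 119 and 6 bases before its start. KLF letters were in the entries of Grhl3, Lypd3, Sbsn, Cnfn, Casp14, Trpv3 and Tgm3 and in the inner Dmkn entry. They were present in 31.5% of all promoters, and the TATA box in 12.7%. The only TATA matches here were 28 bases before the start of Tgm3 and 30 before that of Krtdap, whose entries are not printed. The grainyhead-like motif AACCNGTT, present in 1.97% of all promoters, was found in none of the 11 entries. A match describes letters and is neither a binding site nor a cause.

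Trpv3 and Tgm3 had at least 1 peak in all 12 libraries, and the other 8 genes did not. Over all protein-coding genes, 58.7% had a peak in every library, against 2 of these 10. Grhl3 and Spink5 had a peak in 11 libraries, Krtdap, Sbsn and Dmkn in 10 and Lypd3 in 9. Casp14 had one in 4 libraries and Cnfn in 3. Of the 72 regions, 3 were called in all 12 libraries (4.17%, against 8.16% of all regions) and 23 in a single library (31.9%, against 44.2%).

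Peak lists differed in length. The lists held 85826 and 94976 peaks in Aire -/- against 34715 and 34047 in their wild types, 75830 and 57280 in Aire +/C313Y against 73976 and 55861, and 122326 and 115034 in Aire +/C442G against 93659 and 94458. Without read counts the depth is unknown, and an absent peak means not called, not closed. From the peaks of a sorted population, fewer cells with an open site and less accessible sites in each cell cannot be told apart. Of 10 thymic epithelial markers, 7 had a peak in all 12 libraries: Epcam, Krt14, Krt8, Foxn1, Cd80, H2-Aa and Aire itself. Fezf2 had one in 11 libraries, Krt5 in 8 and Ccl21a in 1. The Aire label is a genotype, and peaks at Aire do not check it. Of 8 T-cell markers 3 to 5 had a peak in the mutant libraries and 2 to 4 in the wild types. Lck had one in all 12 libraries, Cd4 in 11, Lat in 9, Cd3d in 7, Cd3e in 2 and Ptcra in 1. Cd8a and Rag1 had none in any library. A peak in all 12 libraries was also found at 1 of 8 T-cell and 1 of 8 dendritic cell and macrophage markers. The same held for 3 of 5 cortical epithelial and 2 of 5 fibroblast and mural markers. It held for 1 of 4 endothelial, 1 of 4 tuft cell and 0 of 4 B-cell markers.

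**Figure D1:**
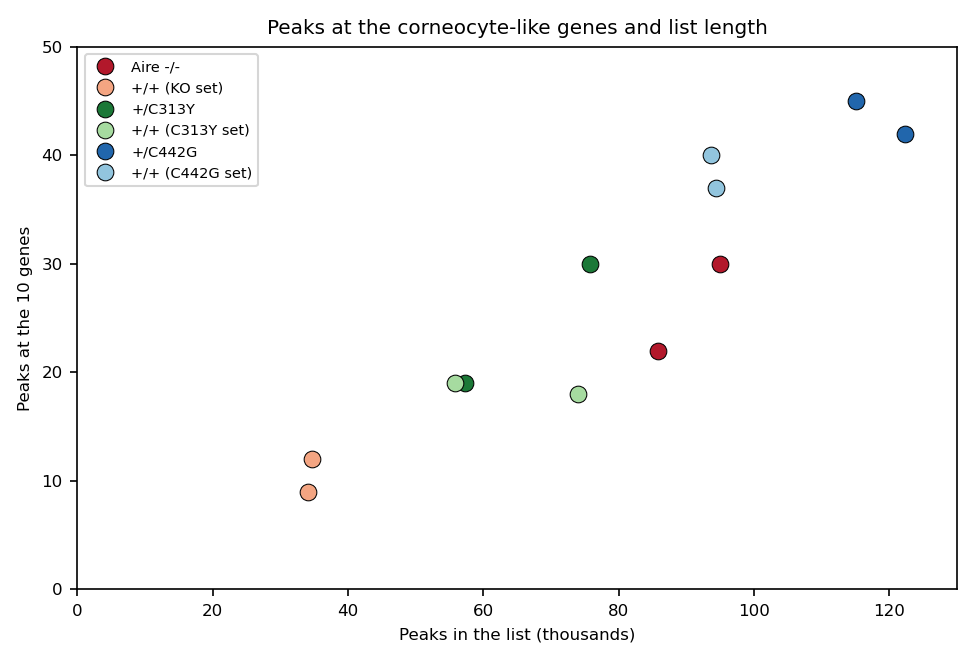
Number of peaks in the whole list (horizontal axis, in units of 1000 peaks) against the number of peaks in the windows of the 10 genes (vertical axis), 1 point per library, coloured by group. The longest lists, of Aire +/C442G, held 42 and 45 peaks at these genes and the shortest, of the wild types of Aire -/-, held 12 and 9, while lists of middle length did not keep that order (22 and 30 in the 2 Aire -/- lists, 40 and 37 in the wild types of Aire +/C442G).

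The covered length of the 10 genes together was 4673 and 4904 bp in Aire -/- and 1755 and 1376 bp in their wild types. It was 5197 and 3031 bp in Aire +/C313Y and 3125 and 3882 bp in their wild types. It was 10150 and 8648 bp in Aire +/C442G and 7760 and 7523 bp in their wild types. The mutant means were 3.06, 1.17 and 1.23 times those of the wild types, and the lists as a whole covered 2.63, 1.11 and 1.25 times as much. Per Mb of covered genome the 10 genes held 255 ± 15.6 bp in Aire -/- and 219 ± 42.9 bp in their wild types, 274 ± 44.0 bp in Aire +/C313Y and 266 ± 67.5 bp in theirs, and 319 ± 22.8 bp in Aire +/C442G and 326 ± 3.20 bp in theirs (mean ± SD, n = 2 each). On that scale mutant and wild-type libraries overlapped in all 3 contrasts.

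**Figure D2:**
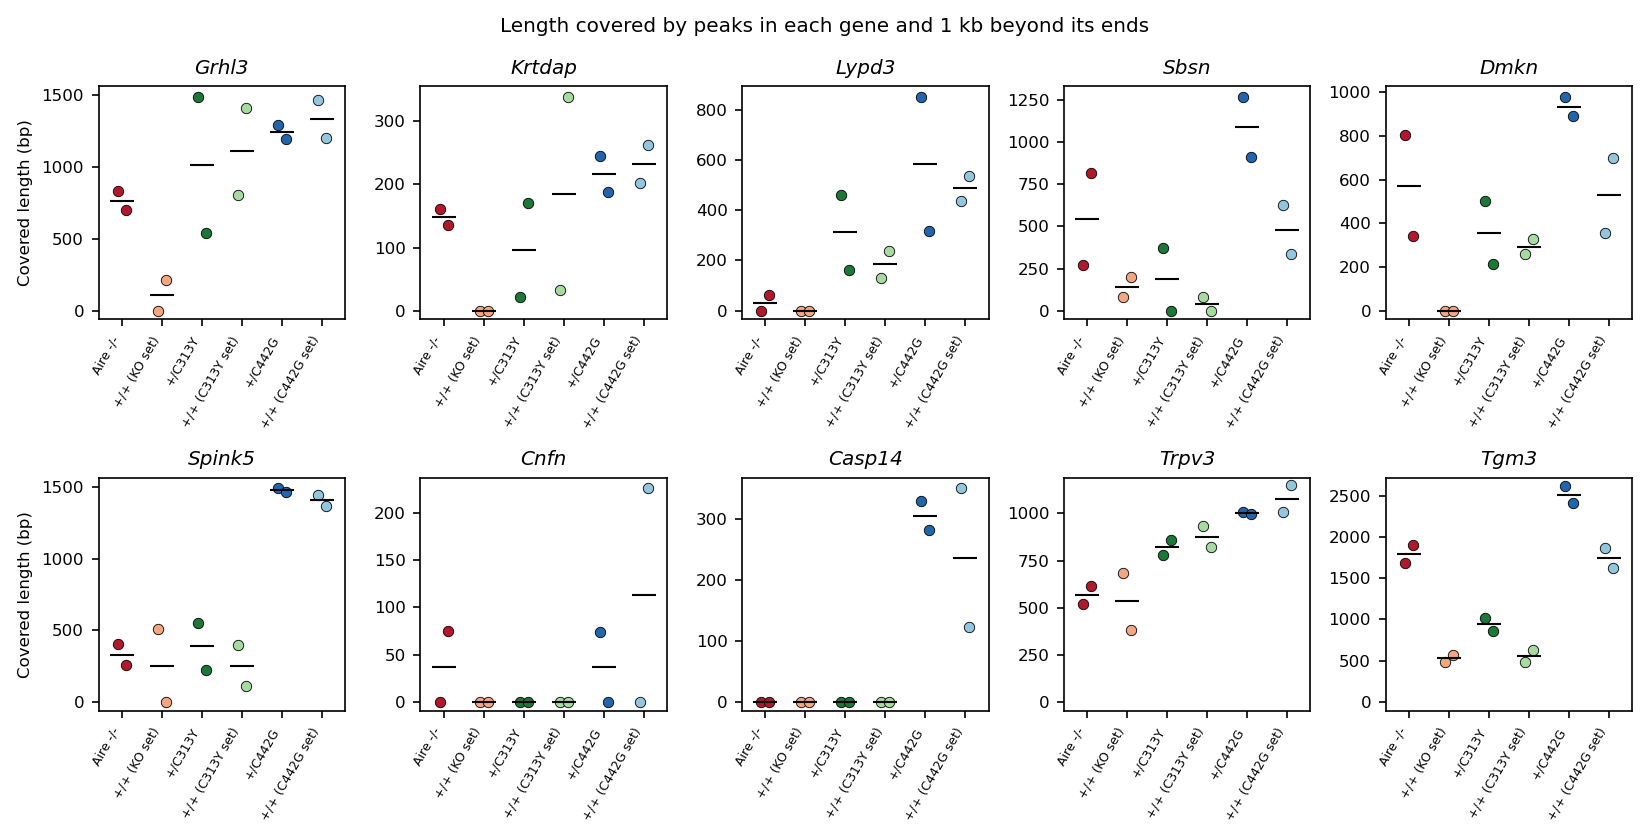
Base pairs covered by peaks in each gene's window (vertical axis), 1 panel per gene, 1 point per library and a bar at the group mean, with the mutant group left of its wild types in each contrast. Tgm3 lay above its wild types in all 3 contrasts, and Casp14 had peaks only in the 4 libraries of the Aire +/C442G set.

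In Aire -/-, compared with its wild types, Krtdap and Dmkn had a peak in both Aire -/- libraries and in neither wild type. Krtdap had 161 and 135 bp of peak in Aire -/- and none in the wild types, and Dmkn had 804 and 341 bp in Aire -/- and none in the wild types. No gene of the 10 had a peak in both wild types and in neither Aire -/- library. Over all genes 5.42% were gained in this way, and 17.0% of the 6883 genes without a wild-type peak. Lost genes made up 0.0277%, and 0.0466% of those with a peak in both wild types. Of the 10 genes, 5 had no wild-type peak (Krtdap, Lypd3, Dmkn, Cnfn and Casp14).

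With the Aire +/C442G wild types as the reference instead, whose lists of 93659 and 94458 peaks are close in length to those of Aire -/-, 0 of the 10 genes were gained (0.518% of all genes) and 1 was lost, Casp14 (0.865%). When the lists of this contrast were shortened to equal length by peak strength, neither Krtdap nor Dmkn was called. At a −log10 q of at least 3 Krtdap was no longer called and Dmkn was. Over all genes 74.4% had a peak in Aire -/- on average, against 63.9% in the wild types, and markers of other cells gained peaks too. Of 8 dendritic cell and macrophage markers 5 and 5 had a peak in Aire -/-, against 1 and 1 in the wild types. These covered 1302 and 1459 bp against 468 and 407 bp. Of this list Xcr1 had a peak in every library and Siglech had none in any. Of 4 tuft cell markers 4 and 4 had one in Aire -/-, against 1 and 2, covering 1404 and 1710 bp against 81 and 385 bp, with Trpm5 and L1cam gained. The T-cell gene Lat, the B-cell gene Vpreb3 and the endothelial gene Kdr were also gained. Their part in the gains was not tested.

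In the heterozygotes Aire +/C313Y and Aire +/C442G no gene of the 10 was gained or lost. Over all genes 0.578% were gained and 0.439% lost in Aire +/C313Y, and 0.749% and 0.162% in Aire +/C442G, so 0 of 10 is near the background. Of the genes without a wild-type peak, 2.55% were gained in Aire +/C313Y and 3.29% in Aire +/C442G, and of those with a peak in both wild types 0.632% and 0.221% were lost. The differences that did occur lay in single regions. Of the 9 genes with a promoter entry, Grhl3 and Dmkn gained a promoter peak in Aire -/- (3.58% of genes with an entry) and Trpv3 lost it (0.0289%). Neither gain was called at a −log10 q of at least 3, with lists of equal length or against the Aire +/C442G wild types. None of the 9 had a promoter peak in all 12 libraries, against 44.8% of genes with an entry.

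**Figure D3:**
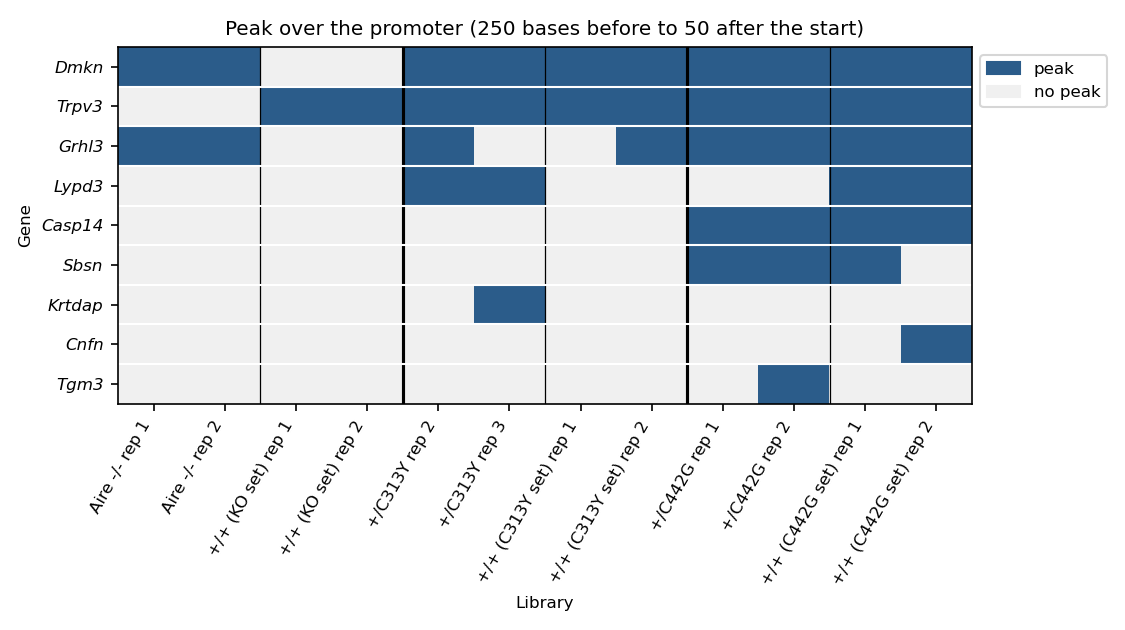
Peak over the RefSeq promoter (filled) or none (empty) for 9 genes (rows) in the 12 libraries (columns), with each mutant group left of its wild types. Trpv3 lacked a promoter peak only in Aire -/-, Dmkn lacked one only in the wild types of Aire -/-, and Lypd3 had one in the 2 Aire +/C313Y libraries and the 2 wild types of Aire +/C442G.

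Trpv3, the warmth-gated channel gene (chromosome 11, 73267489 to 73300368), lost its promoter peak in Aire -/-. The region at 73267319 to 73267570, which overlaps the start printed above, had no peak in either Aire -/- library, against 125 and 122 bp in their wild types. It had 185 and 135 bp in Aire +/C313Y against 209 and 142 bp, and 227 and 183 bp in Aire +/C442G against 161 and 165 bp. It was thus present in 10 of 12 libraries, all but those of Aire -/-, although the Aire -/- lists were 2.63 times as long as their wild-type lists. Only 0.0629% of the 7947 genes with a promoter peak in both wild types lost it in Aire -/-, and 0.455% of the 21535 regions present in both.

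The wild-type peaks behind that call were weak. Their fold enrichment, the authors' value for a peak over background, was 3.75 and 3.59, and their −log10 q was 1.68 and 1.47. In their own lists they ranked at percentiles 20.6 and 7.72 by strength. In the Aire +/C442G set the same region reached a −log10 q of 10.4 and 10.6 in the heterozygotes and 7.57 and 14.7 in the wild types. Its percentiles in those lists were 80.8 and 78.9 in the heterozygotes and 76.2 and 89.1 in the wild types. The loss also held against the Aire +/C442G wild types, and it was no longer called when peaks needed a −log10 q of at least 3. It was kept with lists of equal length too, but that setting could not remove it. Shortening adds no peak to the Aire -/- lists, and it took few peaks or none from their wild types. With 2 libraries against 2 no exact permutation test within a contrast can go below p = 0.333.

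Inside the gene, Trpv3 regions were kept in Aire -/-. The region at 73281549 to 73282033, 14.3 kb after the start, was called in all 12 libraries. Its −log10 q was 13.6 and 9.90 in Aire -/- against 7.37 and 7.79, and 19.9 and 22.0 in Aire +/C442G against 13.5 and 15.0. Within their own lists these peaks were at percentiles 93.5 and 85.4 in Aire -/- against 88.7 and 87.1, which overlapped. In Aire +/C442G they were at 92.1 and 92.5 against 89.2 and 89.4. The region at 73284000 to 73284247, 16.6 kb after the start, was also called in all 12. The region upstream of the start, 73266481 to 73266802, was called in 9 libraries, in neither Aire -/- library and in 1 of their wild types with 94 bp. Trpv3 covered length in total was 520 and 616 bp in Aire -/- and 683 and 384 bp in their wild types, and these overlapped. In Aire +/C442G it was 1005 and 998 bp, just under the 1006 and 1152 bp of their wild types.

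**Figure D4:**
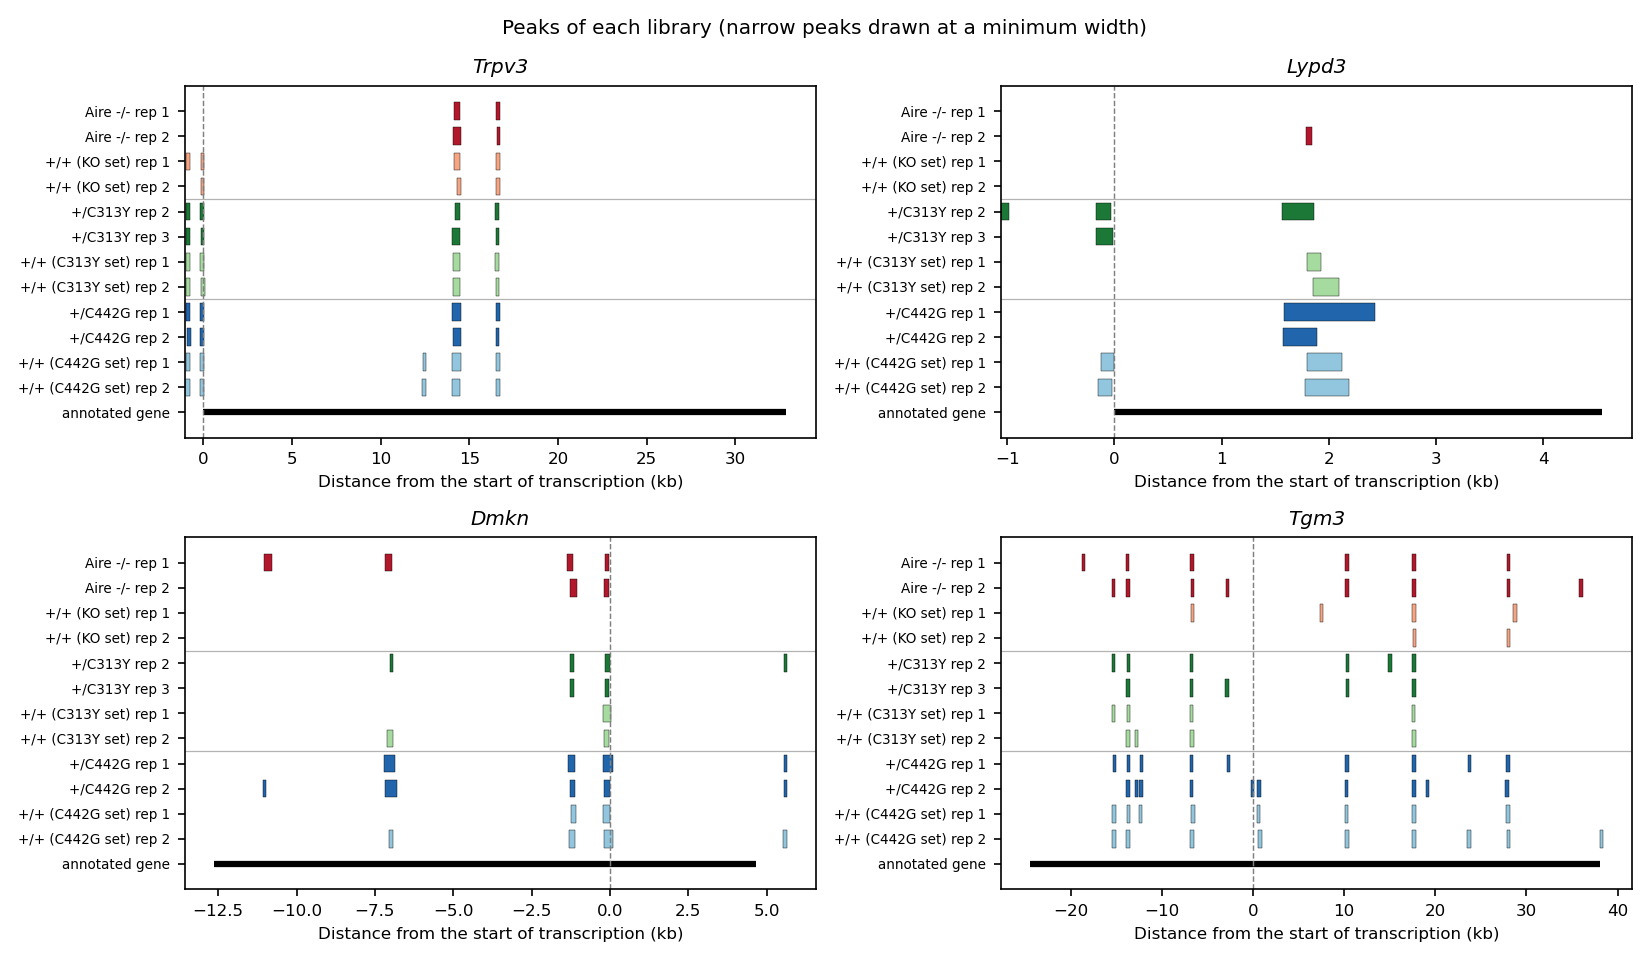
Peaks as bars along the distance from the start of transcription (horizontal axis, kb), 1 row per library, for Trpv3, Lypd3, Dmkn and Tgm3. At Trpv3 the peaks 14.3 and 16.6 kb after the start run through all 12 rows, while the Aire -/- rows have none at the start.

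Lypd3, the Ly6/uPAR surface protein gene (chromosome 7, 24636570 to 24641118), had a promoter peak in 4 libraries that differed in direction between the heterozygotes. The region at 24636395 to 24636563 had 146 and 162 bp in Aire +/C313Y and none in their wild types. It had none in Aire +/C442G, against 116 and 128 bp in their wild types, where −log10 q was 3.17 and 7.80. Neither Aire -/- nor their wild types had it. Among genes with a promoter entry, 0.735% gained a promoter peak and 0.243% lost it in Aire +/C313Y, and 0.787% gained and 0.278% lost it in Aire +/C442G. Of the genes with a promoter peak in both wild types, the lost shares were 0.461% in Aire +/C313Y and 0.489% in Aire +/C442G. The gain in Aire +/C313Y was kept with lists of equal length (the widest peaks, since those lists hold positions only). The loss in Aire +/C442G was kept as well, but equal length could not remove it. Shortening adds no peak to the heterozygote lists, and it took few peaks or none from their wild types. That loss was also kept at the stricter −log10 q. The noncoding gene Gm26550 overlaps this end of Lypd3, so the region may belong to either. Within Lypd3, 2.0 kb from the start, the region at 24638134 to 24639000 was called in 8 libraries and spanned 853 and 318 bp in Aire +/C442G against 321 and 410 bp.

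Grhl3, the barrier transcription factor gene (chromosome 4, 135541887 to 135573632), was covered in 11 of 12 libraries. It had 831 and 699 bp of peak in Aire -/- and 0 and 216 bp in their wild types, which did not overlap. It had 1488 and 538 bp in Aire +/C313Y against 805 and 1412 bp, and 1292 and 1192 bp in Aire +/C442G against 1468 and 1201 bp, so those groups overlapped. Its promoter region, 135573181 to 135573712, had 82 and 76 bp in Aire -/- and none in their wild types, but in the Aire +/C442G set it was narrower in the heterozygotes, 180 and 183 bp against 532 and 488 bp. A peak there was also called in 1 Aire +/C313Y library with 491 bp and in 1 of their wild types with 484 bp. The region 3.33 kb from the start, inside the gene, was called in 10 libraries. The noncoding gene Gm30888 overlaps its start.

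The secreted-protein genes of chromosome 7 were covered in 10 libraries each. At Dmkn (30763756 to 30781066) the inner promoter region, 30776172 to 30776506, was called in 10 libraries, with 137 and 135 bp in Aire -/- and none in their wild types. It had 158 and 98 bp in Aire +/C313Y against 257 and 154 bp, and 329 and 174 bp in Aire +/C442G against 221 and 276 bp. Another region 1.22 kb before that start, 30775032 to 30775341, was called in both libraries of each mutant genotype. It had 206 and 206 bp in Aire -/- and none in their wild types, 133 and 115 bp in Aire +/C313Y and none in their wild types, and 216 and 154 bp in Aire +/C442G against 135 and 214 bp. The outer Dmkn promoters had no peak in any library.

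Sbsn (30732674 to 30756134) had 269 and 815 bp in Aire -/- against 81 and 200 bp, and 1269 and 912 bp in Aire +/C442G against 627 and 335 bp, without overlap in either contrast. It had 374 and 0 bp in Aire +/C313Y against 83 and 0 bp. Its promoter carried a peak in 3 libraries, both Aire +/C442G and 1 of their wild types. Part of the span overlaps the gene Gapdhs, and peaks there, among them both regions gained in Aire -/-, can belong to either. Krtdap (30787905 to 30791089) had 2 regions beyond its far end, 30791356 to 30791860 in 7 libraries and 30791971 to 30792195 in 6, and 1 at its promoter in a single Aire +/C313Y library.

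Tgm3, the envelope transglutaminase gene (chromosome 2, 129987794 to 130050399), had the most regions of the 10, 20 in a span of 62.6 kb. Its covered length was higher in both mutant libraries than in both wild types of every contrast. It was 1681 and 1904 bp in Aire -/- against 484 and 576 bp, 1016 and 863 bp in Aire +/C313Y against 488 and 636 bp, and 2613 and 2406 bp in Aire +/C442G against 1868 and 1619 bp. Averaged over the contrasts the difference, on the scale of log2(bp + 100), was 0.92, with p = 0.00926 by an exact two-sided permutation test, the smallest that the 216 assignments allow. The p adjusted by the Benjamini-Hochberg method over 21631 genes was 0.132, so the difference missed the threshold. It was 0.55 with lists of equal length and -0.13 when peaks were counted only within 1 kb of the gene's ends. Of all genes, 4706 were higher at an unadjusted p under 0.05 (21.8%), and none was called after adjustment.

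The strongest region of Tgm3 within its lists, 130029766 to 130030194, 17.6 kb after the RefSeq start, was called in all 12 libraries. Its fold enrichment was 10.2 and 12.5 in Aire -/- against 7.14 and 8.13, at percentiles 95.7 and 97.9 of their lists against 89.8 and 93.0. In Aire +/C442G it was 12.2 and 13.8 against 10.8 and 10.1, at percentiles 97.5 and 98.2 against 97.1 and 94.9. A region 10.3 kb after the start, 130022429 to 130022870, had 383 and 390 bp in Aire -/- and none in their wild types, 215 and 202 bp in Aire +/C313Y and none in their wild types, and 409 and 357 bp in Aire +/C442G against 211 and 147 bp. The start itself carried a peak in 1 library, of Aire +/C442G. The annotated span begins far upstream of that start, and regions 13.7 and 6.68 kb before it were called in 10 and 11 libraries.

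Spink5, the kallikrein inhibitor gene (chromosome 18, 43959545 to 44022487), had 8 regions and was covered in 11 libraries. It had 407 and 257 bp in Aire -/- against 507 and 0 bp, 555 and 224 bp in Aire +/C313Y against 395 and 110 bp, and 1491 and 1464 bp in Aire +/C442G against 1446 and 1367 bp. In Aire +/C442G the groups did not overlap, by a narrow margin. The region at 43967859 to 43968155 was called in 11 libraries, and that at 43965933 to 43966380 in both Aire +/C442G libraries alone, with 373 and 401 bp.

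Casp14, the caspase gene of cornification (chromosome 10, 78711995 to 78718347), had 1 region, at its start, and only in the Aire +/C442G set. The region at 78718119 to 78718468 had 329 and 281 bp in Aire +/C442G, with a −log10 q of 1.47 and 2.30, and 350 and 123 bp in their wild types, with 1.91 and 2.79. The 4 lists are among the 5 longest. Cnfn (chromosome 7, 25367616 to 25369724) had a peak of 75 bp in 1 Aire -/- library, a peak of 74 bp in 1 Aire +/C442G library, and peaks of 92 and 134 bp in 1 of the Aire +/C442G wild types.

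Over the 72 regions, 11 were gained and 1 lost in Aire -/-, against a background of 11.1% and 0.0429% of all regions, and 13.9% of the regions in neither wild type were gained. Of the regions, 4 were present in both wild types of Aire -/-, and the 1 lost was the Trpv3 promoter. Of the 11 gained, 3 lay in Grhl3, 2 each in Sbsn, Dmkn and Tgm3, and 1 each in Krtdap and Spink5. In Aire +/C313Y 3 were gained (2.31%) and 0 lost (0.719%), and in Aire +/C442G 2 were gained (5.01%) and 2 lost (0.708%). Those gained in Aire +/C313Y were the Lypd3 promoter and the named regions of Dmkn before its start and of Tgm3 after its start. In Aire +/C442G, regions of Sbsn (30756308 to 30756604) and Spink5 were gained, and the Lypd3 promoter and a Trpv3 region (73279914 to 73280029) were lost. Of all regions in both wild types, 4.37% were lost in Aire +/C313Y and 2.28% in Aire +/C442G. Against the Aire +/C442G wild types, Aire -/- gained 0 (1.81%) and lost 9 of the 30 regions present in both (4.13% of all regions, and 13.3% of the 70834 present in both). These counts are small and were not tested against the shares over all regions. With equal lists the 11 gained in Aire -/- became 1, at Spink5 (44011292 to 44011416).

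Counted by gene, covered length did not overlap between the groups and was higher in Aire -/- for 5 genes (Grhl3, Krtdap, Sbsn, Dmkn and Tgm3), where 56.7% of all genes did so, and lower for 0 (0.509%). It was higher in Aire +/C313Y for 1 gene, Tgm3 (21.2%), and lower for 0 (5.27%), and in Aire +/C442G for 4 genes, Sbsn, Dmkn, Spink5 and Tgm3 (29.3%), and lower for 1, Trpv3 (6.08%). The median log2 difference of the 10 genes was 1.05 in Aire -/-, 0.08 in Aire +/C313Y and 0.09 in Aire +/C442G. Over all genes it was 0.56, 0.03 and 0.07, and over the genes with a peak in at least 2 libraries, to which all 10 belong, 0.78, 0.12 and 0.17. Over the 3 contrasts the median of the 10 was 0.38, against 0.26 over all genes and 0.37 over those with a peak in at least 2 libraries. Of the 10, 8 were higher (80%), against 74.2% of all genes and 90.5% of those with a peak in at least 2 libraries. Sbsn (1.02, adjusted p = 0.227) and Dmkn (1.20, adjusted p = 0.212) had the largest differences in the exact permutation test, and no gene of the 10 passed it. With lists of equal length they were 0.36 and 0.62.

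**Figure D5:**
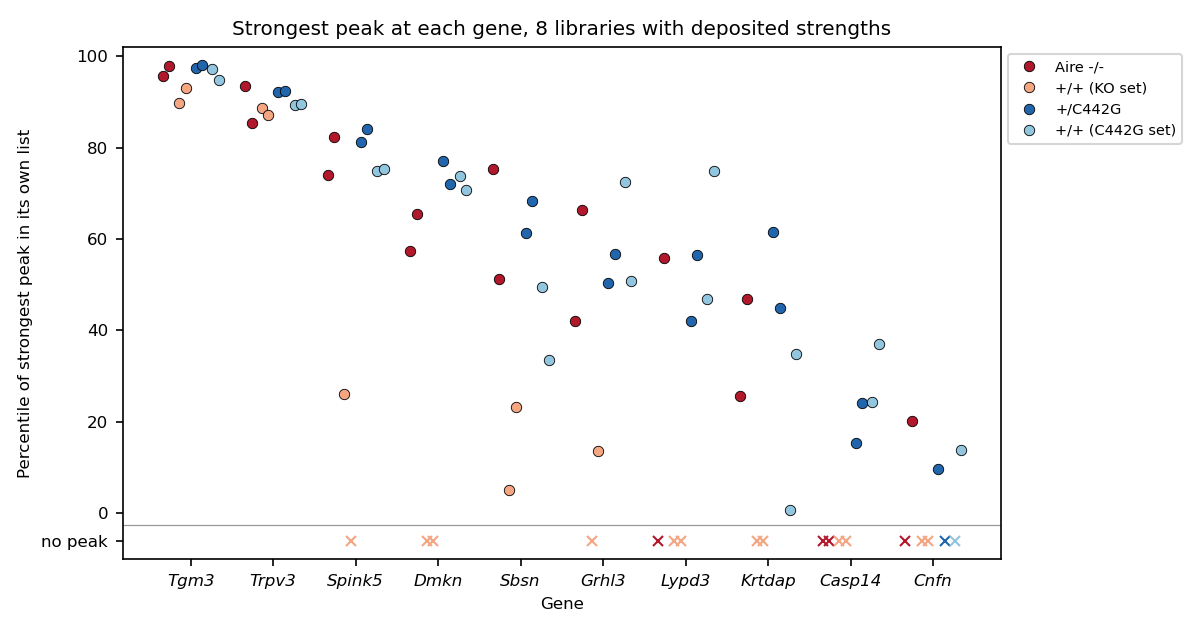
Percentile of the strongest peak in each gene's window among all peaks of its own list (vertical axis), 1 point per library and a cross where no peak was called, for the 8 lists with deposited strengths, with the mutant group left of its wild types. Tgm3 and Trpv3 stay high in all 8, and most crosses belong to the wild types of Aire -/-.

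Peak strength was ranked within each list in the 2 contrasts with deposited strengths. A library with no peak at a gene was scored at percentile 0, and the lists ranked differ in length, so a difference holds presence and absence as well as strength. Trpv3, Tgm3 and Sbsn had a peak in all 8 lists. Their mean differences in percentile, mutant minus wild type, were 2.26, 3.64 and 36.2. Over all genes tested the median difference was 7.87. At genes without a peak in some lists, the difference was 36.3 for Spink5, 35.8 for Krtdap, 32.0 for Dmkn and 19.6 for Grhl3. It was 8.16 for Lypd3 and 3.97 for Cnfn. At Casp14 it was -5.43, from the Aire +/C442G set alone, since no library of the Aire -/- contrast had a peak. The exact permutation test allows no p below 0.0556 here, and no gene passed it.

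Other genes of cornification were read from 3 lists, chosen with earlier results of these data known. Of 24 barrier genes, which cross-link the envelope, make its lipids, join corneocytes or shed them, 12 had a peak in all 12 libraries, while 2 of the 3 kallikreins listed, Klk5 and Klk7, proteases of skin shedding, had none in any and the third, Klk14, had one in 11. Dsg1a, a desmosomal cadherin, had 686 and 631 bp in Aire -/- and none in the wild types, and Tgm1, another envelope transglutaminase, had 470 and 309 bp and none. In Aire +/C313Y the lipid barrier enzyme gene Alox12b had no peak against 201 and 175 bp in the wild types, and the desmocollin gene Dsc1 none against 97 and 88 bp. The 2 barrier genes of 24 gained in Aire -/- stand beside 5.42% of all genes gained, and the 2 lost in Aire +/C313Y beside 0.439% lost. No barrier gene was gained or lost in Aire +/C442G. Of 20 regulators of keratinocytes, 19 had a peak in all 12 libraries, Zfp750 had one in 11, and 0 were gained or lost in any contrast. Of 10 envelope precursors of the epidermal differentiation complex, 2 had a peak in all 12 libraries (Lor and Sprr1a) and 3 in none (Flg2, Hrnr and Sprr3), with 0 gained or lost. At an unadjusted permutation p under 0.05, 8 barrier genes, 5 regulators and 0 precursors were higher in the mutants, where 21.8% of all genes were, and none passed after adjustment. Their median log2 differences were 0.58, 0.29 and 0, against 0.26 over all genes, so the regulators were near the background.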

How the data were processed

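ATAC-seq libraries of mTEChi were compared from their peak lists. Tools named in the submitters' processing notes, with no version, are MACS2, Bowtie2, Picard and cutadapt, with the build mm10. For 8 libraries each deposited peak carries the authors' fold enrichment (a ratio), −log10 q, −log10 p and score. The other 4 deposited lists, those of Aire +/C313Y and its wild types, give positions alone. Peaks were called per sample. A fold or rank was the authors' value and was used within its own list.

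No reads were used, so depth is unknown. A short list can miss weak peaks. Peaks on chromosomes 1 to 19 and X were assigned to RefSeq spans (GRCm38.p6) extended by 1 kb. Gained meant a peak in both mutant libraries and neither wild type, and lost the reverse. Covered length, the bases of peaks inside that window, was tested on log2(bp + 100) by exact permutation within contrasts, with Benjamini-Hochberg adjustment over 21631 genes (Python 3.11.15, numpy 2.4.6), and strength by the percentile of the strongest peak. The counting was tested on simulated lists. The genes, their lists and the markers were chosen with earlier results of these data known. Named genes were the 10 members and, of each pathway list, up to 4 gained and 4 lost per contrast, and markers named outside that rule were chosen after their values were seen. Promoters with a peak in both libraries of a group were printed, a narrower choice than the 1 library planned.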

Additional observations from a re-analysis of the deposited data

Results flagged for a closer look

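At 3 promoter regions the mutants of 2 contrasts moved in opposite directions relative to their own wild types, with every library on its side. Values are log2 differences in peak width (bp + 100), mutant minus wild type. The difference between contrasts was tested by exact permutation over 36 assignments, where p = 0.0556 is the smallest possible, so none can pass 0.05. The regions were chosen because their libraries separate in this way, which fixes that p, so it supports nothing.

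At the Lypd3 promoter the difference was 1.34 in Aire +/C313Y and -1.15 in Aire +/C442G, a difference of 2.49. At the Grhl3 promoter it was 0.84 in Aire -/- and -1.11 in Aire +/C442G, a difference of 1.95. At the Trpv3 promoter it was -1.16 in Aire -/- and 0.21 in Aire +/C442G, a difference of -1.37. Over all genes, covered length moved in opposite directions in 3.16% (Aire +/C313Y and Aire +/C442G) and 4.01% (Aire -/- and Aire +/C442G). These shares count the covered length of whole genes, not the peak width of a region. They are therefore no direct background for the 3 regions, and the share over all regions is not given.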

How the results depend on the processing

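Genes gained in Aire -/- numbered 2; with lists of equal length, all 6 wild types or the Aire +/C442G wild types as reference they numbered 0, with no bases beyond the gene 1, with presence in 1 library 4, and without 1 replicate 2 to 4. At a −log10 q of at least 3 they numbered 3 (Sbsn, Dmkn and Spink5, not Krtdap), and with gene ends only 2 (Grhl3 and Krtdap, not Dmkn). Genes lost in Aire -/- numbered 0, and 1 when only gene ends were used (Trpv3) or against the Aire +/C442G wild types (Casp14). With gene ends only, 1 gene was gained in Aire +/C313Y and 1 lost in Aire +/C442G, both Lypd3, and at a −log10 q of at least 3, 1 was gained in Aire +/C442G (Krtdap).

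Regions gained in Aire -/- numbered 7 at the stricter q, 1 with equal lists, 0 against the Aire +/C442G wild types and 12 to 20 without 1 replicate. Regions lost there numbered 0 at the stricter q, 9 against the Aire +/C442G wild types and 1 to 5 without 1 replicate. Without 1 replicate, Aire +/C313Y gained 4 to 9 and lost 0 to 2, and Aire +/C442G gained 4 to 10 and lost 3 to 5. At the stricter q Aire +/C442G gained 7 and lost 1. The alternatives for regions and the Aire +/C442G reference were chosen after seeing the data.

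The log2 difference in covered length changed sign at the stricter q for Lypd3 (-0.019) and Trpv3 (0.31), with equal lists for Grhl3 (-0.28), Krtdap (-0.25) and Casp14 (-0.23), with no bases beyond the gene for Trpv3 (0.053), with gene ends only for Grhl3 (-0.089) and Tgm3 (-0.13), and with a pseudocount of 10 bp for Cnfn (0.27). Without 1 replicate it ran between -0.30 and 0.27 for Cnfn, -0.14 and 0.094 for Trpv3, -0.014 and 0.56 for Krtdap and -0.052 and 0.29 for Casp14, and the percentile difference between -5.78 and 22.1 for Lypd3 and -1.07 and 9.01 for Cnfn. Over both measures 20 single-gene values changed sign and 329 did not, and the cause was not tested. No gene of the 10 passed adjustment under any alternative (smallest adjusted p = 0.106, permutation).

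Libraries with the same replicate number shared no deviation from their group means (correlation of same-numbered deviations 0.02, -0.04 and 0.00). This cannot tell whether the numbers mark paired animals, which the labels do not say. With a replicate block Tgm3 was 0.96 and 0 genes passed adjustment.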
